A study of Mus musculus with 6 samples.

Results

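The extracellular matrix genes of RVP3 tumour cells were examined on bead arrays: the collagen chains, the laminins, the matrix glycoproteins and proteoglycans, and the enzymes that process and cross-link collagen. Members were taken by gene symbol from the annotation of the array's probes, as every symbol of the families Col, Lama, Lamb, Lamc, Fbn, Fbln, Lox, Emilin, Ltbp and Plod together with the glycoproteins Fn1, Ecm1, Mgp, Nid1, Nid2, Postn, Sparc, Thbs2, Thbs3 and Tnc, the proteoglycans Bgn, Dcn, Hspg2, Lum and Vcan, and the processing genes P4ha1, P4ha2 and Serpinh1. They had 75 tested probes for 45 genes, among 16760 tested probes and 8734 named genes in all. Genes with several probes were represented by the brightest, on average over the 6 arrays.

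RVP3 is a murine tumour line, of C57BL/6 background per the labels, and it was the line of the study that does not respond to IFNγ. The 3 DAC/TSA arrays came from cells given 3 μM of 5-aza-2′-deoxycytidine (DAC), which inhibits DNA methyltransferases, for 48 h, and then 30 ng/ml of trichostatin A (TSA), which inhibits histone deacetylases, for a further 24 h. The 3 control arrays came from untreated cells of the same line, and no vehicle is named for them. Both agents were given in sequence, so their effects cannot be told apart, and 1 cell line stands for the model.

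The matrix outside cells is built from fibrillar collagens, which assemble into fibres, and from basement membranes, in which laminin and type IV collagen networks are linked by nidogen and perlecan. Collagen chains are hydroxylated on proline and lysine and fold into triple helices in the endoplasmic reticulum with the help of the chaperone Serpinh1, and the secreted fibres are then cross-linked by lysyl oxidases. Fibronectin, thrombospondins and small proteoglycans bind these networks and the cells on them.

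Of the 9 matrix genes with at least a 2-fold difference, 7 had a start listed in RefSeq (GRCm38.p6). The 150 bases before that start are shown for these genes, because DAC acts on cytosine methylation and the promoters differ in how many CpG sites, the main substrate of that methylation, they hold. Each run is given 5′ to 3′ on the strand of the gene, with every CpG in capitals. The windows lie, for Col5a1 at chr2:27886275-27886424 on the plus strand, Col6a1 at chr10:76726045-76726194 on the minus strand, Lamb3 at chr1:193301844-193301993 on the plus strand, Ecm1 at chr3:95739570-95739719 on the minus strand, Thbs2 at chr17:14694263-14694412 on the minus strand, Ltbp4 at chr7:27337613-27337762 on the minus strand and Serpinh1 at chr7:99353240-99353389 on the minus strand.
Col5a1: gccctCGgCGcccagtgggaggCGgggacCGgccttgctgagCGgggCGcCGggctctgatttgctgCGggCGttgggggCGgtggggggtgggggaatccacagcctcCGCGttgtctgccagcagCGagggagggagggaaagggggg
Col6a1: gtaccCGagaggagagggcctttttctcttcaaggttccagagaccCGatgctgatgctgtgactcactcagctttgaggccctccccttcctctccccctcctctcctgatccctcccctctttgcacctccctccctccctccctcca
Lamb3: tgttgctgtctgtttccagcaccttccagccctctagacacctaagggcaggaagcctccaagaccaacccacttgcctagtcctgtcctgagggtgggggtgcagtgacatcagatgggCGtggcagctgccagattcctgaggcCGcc
Ecm1: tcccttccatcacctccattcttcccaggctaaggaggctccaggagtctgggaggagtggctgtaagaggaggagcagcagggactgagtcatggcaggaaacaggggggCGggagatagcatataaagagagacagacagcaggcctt
Thbs2: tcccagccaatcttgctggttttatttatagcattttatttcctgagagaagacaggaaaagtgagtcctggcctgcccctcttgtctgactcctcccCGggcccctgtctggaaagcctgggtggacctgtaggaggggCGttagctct
Ltbp4: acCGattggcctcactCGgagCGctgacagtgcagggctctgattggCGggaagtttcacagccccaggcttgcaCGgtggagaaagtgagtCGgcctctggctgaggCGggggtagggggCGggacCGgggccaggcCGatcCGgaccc
Serpinh1: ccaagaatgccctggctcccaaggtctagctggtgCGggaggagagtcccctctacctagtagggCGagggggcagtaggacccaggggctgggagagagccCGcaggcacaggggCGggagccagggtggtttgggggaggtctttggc

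The runs of Col6a1, Lamb3, Ecm1 and Thbs2 hold few capitals, and that of Col5a1 holds many. Counted over the 250 bases before the start, Col5a1 had 28 CpG sites, Col6a1 and Thbs2 had 3 each, Lamb3 had 2 and Ecm1 had 1, whereas Ltbp4 had 15 and Serpinh1 had 11. Genes that rose at least 2-fold thus included both CpG-poor and CpG-rich promoters. Over the 38 matrix genes with a listed start the median was 10.5 CpG sites, with a range of 1 to 31. It was 6 over 27025 genes of the same annotation with a full-length window, those of chromosome 18 left out. These 27025 genes were not limited to those tested on the arrays, so the medians do not compare like sets. The median was 12 for the 17 matrix genes that rose, 15 for the 5 that fell and 9 for the 16 that did not pass the test. Lamb3 and Ltbp4 have more than 1 listed start, and the first was used. Methylation of these sites was not measured on the arrays.

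Short motifs were counted on both strands of the same 250 bases, as a description only. All promoters here means those of the same 27025 genes, tested on the arrays or not. The tested genes were not counted separately, so a difference cannot be called particular to matrix genes. The GC-box letters GGGCGG were in 25 of 38 matrix promoters (65.8%), against 32.9% of all promoters, and CCAAT was in 39.5% against 34.5%. TATAAA was in 10.5% against 13.0%. TGANTCA, the letters of an AP-1 site, was in 5.26% against 6.87%, and the 2 promoters with it were Col6a1 and Ecm1. GAANNTTC, part of a heat shock element, was in 5.26% against 6.78%.

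Treatment with DAC/TSA moved the matrix genes in both directions, and more of them up than down. Of the 45 genes, 19 rose (42.2%) and 7 fell (15.6%) at an adjusted p of 0.01 in limma, while 27.0% of all 8734 genes rose and 25.8% fell. The members were chosen with earlier results of these data known, so these shares are a description only. Counts by role below are to be read beside the same shares of all genes. A gene that was detected only in DAC/TSA cells had to be higher there, and 8 matrix genes were detected on no control array. Among the 37 matrix genes detected in both groups, 14 rose (37.8%) and 7 fell (18.9%), against 24.5% and 26.9% of all genes detected in both groups. With median scaling in place of quantile normalisation, 12 matrix genes rose and 3 fell, and 1335 of all genes rose and 815 fell, against 2358 and 2254. The median log2 change was 0.28 over the 45 genes, or 0.22 with undetected genes at their lower bounds, and -0.023 over all genes. At least a 2-fold difference was reached by 6 genes that rose (Fn1, Lamb3, Col6a1, Ecm1, Thbs2 and Col5a1) and 3 that fell (Serpinh1, Loxl1 and Ltbp4). Of all 8734 genes, 617 rose and 334 fell at least 2-fold at the same adjusted p. Non-overlapping groups of arrays were seen for 27 matrix genes with higher and 7 with lower signals in DAC/TSA cells, and for 69.2% of all genes.

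**Figure D1:**
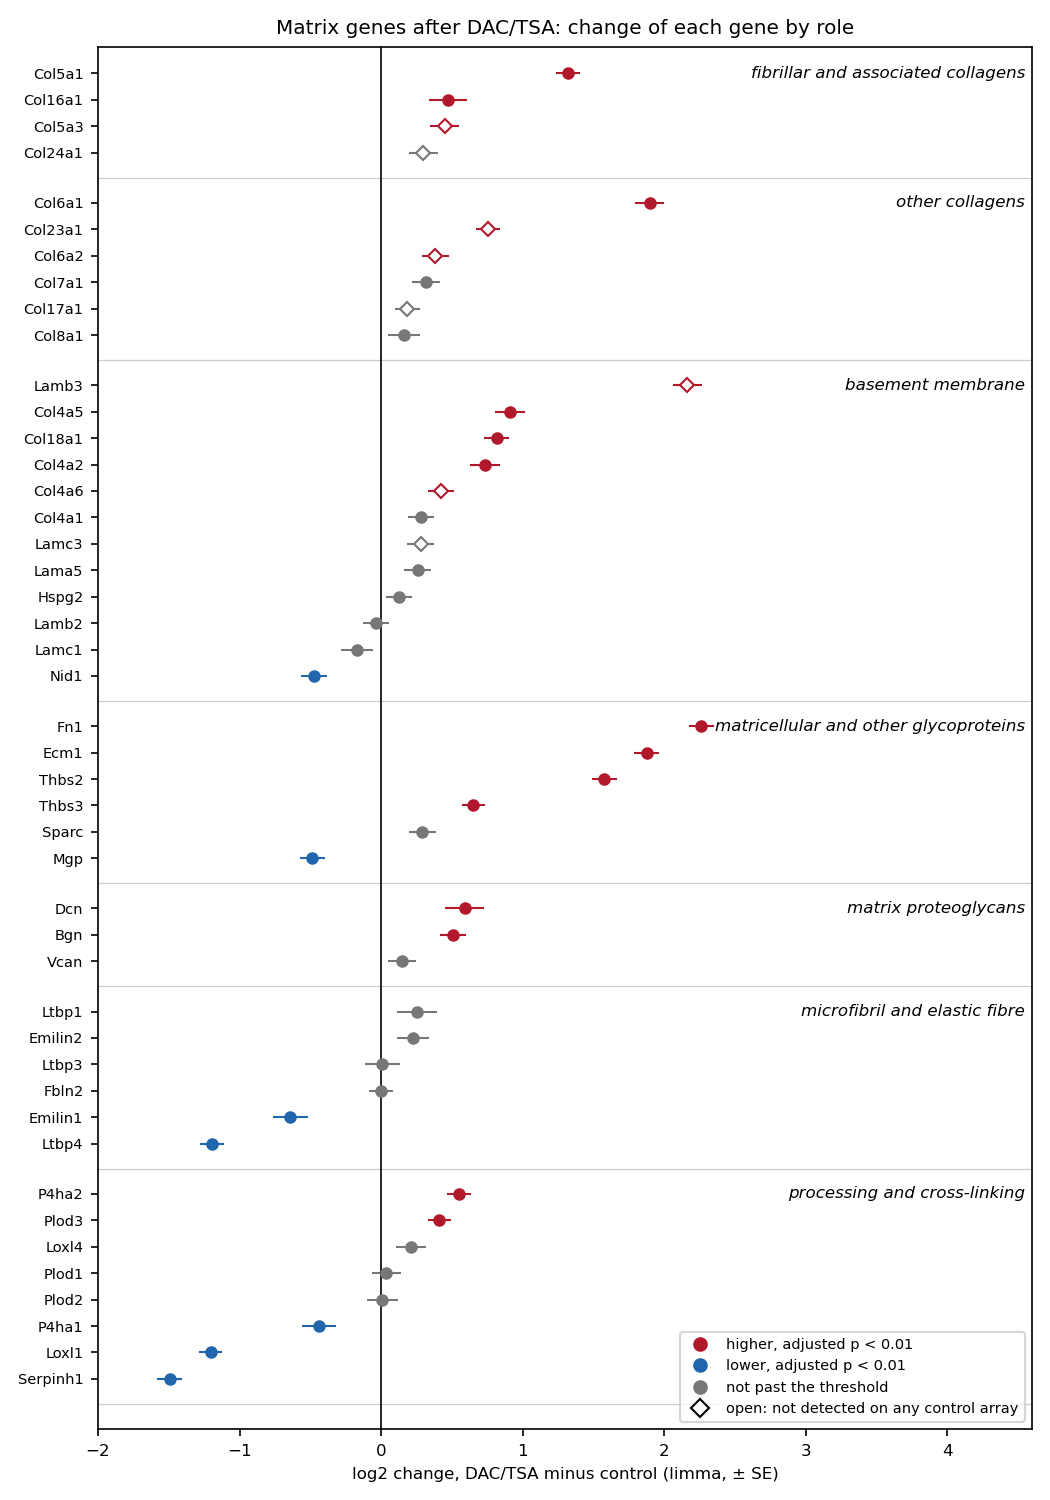
Log2 change of each of the 45 matrix genes (x axis, DAC/TSA minus control, limma, with its SE as a bar), grouped by role down the page. Red and blue points passed an adjusted p of 0.01, grey points did not, and open diamonds mark the 8 genes detected on no control array. The collagen groups lie to the right of 0, and the largest decreases are Serpinh1, Loxl1 and Ltbp4.

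Replicate 3 had the highest mean signal of both groups, at 296 against 251 and 260 intensity units on the other DAC/TSA arrays and at 279 against 233 and 237 on the other control arrays. Median signals were 42.6 to 45.9 on DAC/TSA and 40.0 to 42.9 on control arrays, and 14101 to 15056 against 13227 to 14261 probes were detected. Across probes, replicate 3 of both groups deviated alike from its group mean (correlation 0.65). A fit blocked on replicate number was therefore also run, in which 25 matrix genes were higher and 7 lower. Of all genes, 2837 were higher and 2864 lower in it, against 2358 and 2254 without the block. The 6 matrix genes it added are given with its value.

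The fibrillar collagens and the collagens that associate with fibrils were represented by 4 genes, of which 3 rose and none fell, with a median log2 change of 0.46. Of these, 2 were detected on no control array, and the median was 0.35 with them at their bounds and 0.90 over the 2 genes detected in both groups. Col5a1, a chain of the type V collagen that starts fibrils, had log2 signals of 11.02, 10.92 and 11.03 in DAC/TSA cells, against 9.60, 9.68 and 9.72 in control cells. All its DAC/TSA arrays lay more than 1 log2 unit above the control arrays. The change was 1.32 ± 0.09 (SE), or 2.50-fold (adjusted p = 9.71e-08, limma). Col16a1, a fibril-associated collagen, was 1.39-fold higher (adjusted p = 0.00867), and Col5a3, another type V chain, was detected on no control array and was at least 1.17-fold higher (adjusted p = 0.00204). Col24a1, a fibrillar chain that was also detected on no control array, differed by 0.30 ± 0.10 on the log2 scale and did not pass (adjusted p = 0.0229, but 0.00241 with the replicate block). Its other probe, likewise undetected in control cells, was at least 1.10-fold higher (adjusted p = 0.00072). The calls of Col16a1 and Col5a3 were lost with median scaling in place of quantile normalisation (adjusted p = 0.173 and 0.0251). Col16a1 also lost its call with background-corrected signals (adjusted p = 0.0218), with the mean of probes (0.0108) and without either control replicate 1 or 2 or DAC/TSA replicate 2 or 3 (0.0219 to 0.0376), and Col5a3 without control replicate 1 or DAC/TSA replicate 1 (0.0134 and 0.0119). Genes of the type I and type III collagens, like those of the fibrillins and Tnc, Nid2, Lum and Postn, are not analysed here, as none had a tested probe with a name.

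Among the 6 other collagens outside the basement membrane, 3 rose and none fell, with a median log2 change of 0.35 (0.24 once genes undetected in control cells are set to their bounds). Col6a1, a chain of the beaded-filament collagen VI that surrounds many cells, had log2 signals of 9.26, 9.19 and 9.11 in DAC/TSA cells, against 7.30, 7.45 and 7.11 in control cells. The groups were well apart, and Col6a1 rose 3.73-fold (log2 change 1.90 ± 0.10, adjusted p = 2.11e-08) and 3.55-fold by its other probe. Col23a1, a transmembrane collagen, had 6.04, 6.17 and 6.08 in DAC/TSA cells, against 5.37, 5.31 and 5.35 in control cells. It was detected in DAC/TSA cells only and was at least 1.24-fold higher (adjusted p = 9.50e-06). Col6a2, which encodes a partner chain of Col6a1, was also detected in DAC/TSA cells only and was at least 1.11-fold higher (adjusted p = 0.00402), a call that was lost with median scaling (0.0249) and when any 1 array other than control replicate 2 and DAC/TSA replicate 3 was left out (0.0146 to 0.0208). Col7a1, which forms the anchoring fibrils below epithelia, had 9.06, 8.99 and 9.00 in DAC/TSA cells, against 8.87, 8.70 and 8.54 in control cells. Its groups did not overlap, but the change of 0.32 ± 0.10 did not pass (adjusted p = 0.0154), except with the replicate block (0.0021) or without control replicate 1 (0.00739). Col17a1, a hemidesmosome collagen detected on no control array, and Col8a1, a short-chain collagen, had log2 changes of 0.19 and 0.16 that did not pass. Over the 15 collagen chains of every kind, 10 rose and none fell, beside 27.0% and 25.8% of all genes. Of the 9 chains detected in both groups 6 rose (66.7%), beside 24.5% of all genes detected in both.

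In the basement membrane group, 5 of 12 genes rose and 1 fell, beside 27.0% and 25.8% of all genes. The median log2 change was 0.28 (0.21 once genes undetected in control cells are set to their bounds). Of its 9 genes detected in both groups 3 rose (33.3%), beside 24.5% of all genes detected in both. The laminin β3 chain Lamb3, part of the laminin that anchors epithelia, had log2 signals of 7.52, 7.29 and 7.50 in DAC/TSA cells, against 5.16, 5.44 and 5.21 in control cells. It was detected on all 3 DAC/TSA arrays and on no control array, so that it was at least 3.13-fold higher (adjusted p = 8.35e-09). The type IV collagen chain Col4a5 had 7.41, 7.35 and 7.24 in DAC/TSA cells, against 6.57, 6.49 and 6.21 in control cells. Its lowest DAC/TSA value lay above its highest control value, and it rose 1.88-fold (log2 change 0.91 ± 0.11, adjusted p = 1.29e-05). Col18a1, the collagen whose end is released as endostatin, had 10.44, 10.48 and 10.62 in DAC/TSA cells, against 9.71, 9.72 and 9.67 in control cells. The control arrays lay within a narrow range below the treated ones, and Col18a1 rose 1.76-fold (log2 change 0.82 ± 0.09, adjusted p = 6.00e-06). Its other probe had overlapping groups and a change of 0.26 that did not pass (adjusted p = 0.0625), and the mean of both gave 0.54. Col4a2 had 10.31, 10.37 and 10.43 in DAC/TSA cells, against 9.83, 9.63 and 9.44 in control cells. This chain of the common type IV collagen rose 1.66-fold (adjusted p = 7.52e-05). Col4a6 was detected in DAC/TSA cells only and was at least 1.12-fold higher (adjusted p = 0.00176, lost with median scaling at 0.0193).

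Of the linker proteins and other laminins, Nid1 fell and none rose. Nid1, which bridges laminin and collagen IV, had log2 signals of 9.37, 9.22 and 9.30 in DAC/TSA cells, against 9.66, 9.79 and 9.88 in control cells. It fell 1.39-fold without overlap of the groups (log2 change -0.48 ± 0.09, adjusted p = 0.000783), its other probe fell by 0.38, and the call was lost with median scaling (adjusted p = 0.0987). Hspg2, the basement membrane proteoglycan perlecan, had 10.12, 10.13 and 10.35 in DAC/TSA cells, against 10.07, 10.08 and 10.06 in control cells. These groups were separated by a small gap, and the change of 0.13 ± 0.09 did not pass (adjusted p = 0.260). Lamb2, Lamc1 and Lama5 had log2 changes of -0.03, -0.17 and 0.26 (adjusted p = 0.775, 0.206 and 0.0339). Lamc3 was detected on 2 DAC/TSA arrays and on no control array, and its difference of 0.28 did not pass (adjusted p = 0.0261, but 0.00833 with the replicate block). Col4a1 had a change of 0.28 ± 0.09 (adjusted p = 0.0207, and 0.0047 with the replicate block).

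The matricellular and other glycoproteins had the largest median change of the groups, at 1.12, with 4 of 6 genes higher and 1 lower. Among all genes, 27.0% were higher and 25.8% lower. Fn1, the fibronectin that links cells through integrins to the matrix, had log2 signals of 11.28, 11.37 and 11.28 in DAC/TSA cells, against 8.96, 9.08 and 9.08 in control cells. The separation of the groups was many times the spread within either, and Fn1 rose 4.80-fold (log2 change 2.26 ± 0.09, adjusted p = 1.25e-09). Its other probe, detected on no control array, was at least 1.37-fold higher (adjusted p = 1.78e-05), and the mean of both probes gave a log2 change of 1.5. Ecm1, a secreted glycoprotein that binds perlecan and fibronectin, had 11.34, 11.41 and 11.52 in DAC/TSA cells, against 9.50, 9.53 and 9.60 in control cells. It rose 3.67-fold (log2 change 1.88 ± 0.09, adjusted p = 7.09e-09), and its other probe by 1.51. Thbs2, a thrombospondin that modulates cell adhesion and inhibits angiogenesis, had 13.45, 13.35 and 13.34 in DAC/TSA cells, against 11.83, 11.89 and 11.69 in control cells. No array of either group came near the other, and it rose 2.99-fold (adjusted p = 3.22e-08). The related Thbs3 had 6.76, 6.80 and 6.75 in DAC/TSA cells, against 6.13, 6.09 and 6.13 in control cells, and rose 1.57-fold (adjusted p = 2.38e-05).

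Sparc, a collagen-binding glycoprotein, had log2 signals of 10.96, 11.00 and 10.98 in DAC/TSA cells, against 10.84, 10.58 and 10.65 in control cells. The groups lay close to each other without overlap, and the change of 0.29 ± 0.09 did not pass (adjusted p = 0.0175), except with the replicate block (0.00444) or without control replicate 1 (0.00883). Mgp, an inhibitor of matrix calcification, had 6.29, 6.15 and 6.11 in DAC/TSA cells, against 6.62, 6.75 and 6.64 in control cells. It fell 1.40-fold (log2 change -0.48 ± 0.09, adjusted p = 0.000552), a call that was lost with median scaling (0.037).

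**Figure D2:**
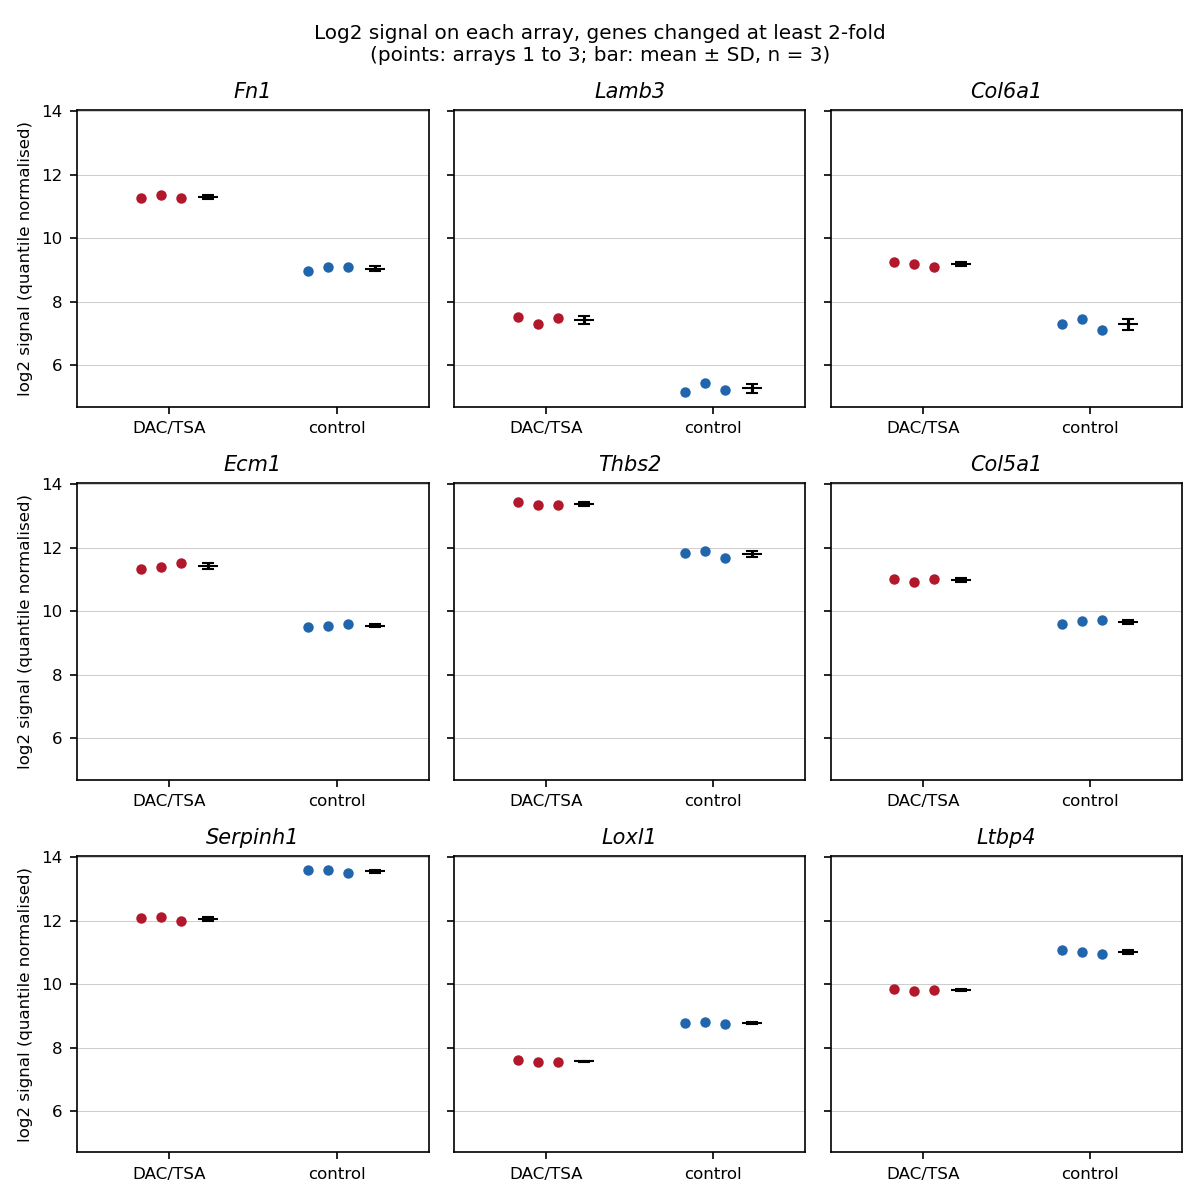
Log2 signal on each array (y axis, quantile-normalised) of the 9 matrix genes with at least a 2-fold difference, with DAC/TSA arrays to the left of control arrays and the group mean ± SD as a bar (n = 3 each). The groups do not overlap for any of the 9 genes, and Lamb3 was detected on no control array.

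Of the 3 matrix proteoglycans, 2 rose. Decorin, Dcn, which binds collagen fibrils and limits their width, had log2 signals of 10.13, 10.21 and 10.50 in DAC/TSA cells, against 9.60, 9.47 and 9.99 in control cells. Replicate 3 was the highest of both groups, the groups did not overlap, and Dcn rose 1.51-fold (log2 change 0.59 ± 0.14, adjusted p = 0.00259). The call was lost with median scaling (0.111) and without control replicate 1 or 2 (0.0136 and 0.015). Biglycan, Bgn, its close relative, rose 1.42-fold (adjusted p = 0.000483). Vcan, the large hyaluronan-binding proteoglycan versican, gave different answers by probe. Its brightest probe and a dimmer one had changes of 0.15 ± 0.10 and -0.03 ± 0.09 that did not pass. The remaining Vcan probe had 7.13, 7.11 and 7.18 in DAC/TSA cells, against 5.96, 6.20 and 6.01 in control cells, and rose 2.12-fold (adjusted p = 8.98e-07). Which transcripts of Vcan each probe reads was not determined, and the mean of its probes rose by 0.40 (adjusted p = 0.00118).

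None of the 6 microfibril and elastic fibre genes rose, and 2 fell. Ltbp4, a latent TGF-β binding protein needed for elastic fibre assembly, had log2 signals of 9.85, 9.78 and 9.82 in DAC/TSA cells, against 11.08, 11.00 and 10.96 in control cells. All its control arrays lay more than 1 log2 unit above the DAC/TSA arrays. It fell 2.29-fold (log2 change -1.20 ± 0.08, adjusted p = 1.93e-07), and its other probes fell by 1.21 and 0.52. Emilin1, an elastic fibre glycoprotein, had 6.93, 6.61 and 6.61 in DAC/TSA cells, against 7.45, 7.12 and 7.49 in control cells. The groups did not overlap and Emilin1 fell 1.56-fold (adjusted p = 0.000619), although the call was lost with median scaling (0.0488). Emilin2 and Fbln2 had changes of 0.22 and 0.00 that did not pass. Ltbp1 had a change of 0.25 ± 0.14 (adjusted p = 0.144, and 0.00723 with the replicate block). Ltbp3 had a change of 0.01 by its brightest probe, while a dim probe detected on no DAC/TSA array was at least 1.15-fold lower (adjusted p = 0.000271).

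Of the 8 genes that fold, modify and cross-link collagen, 2 rose (25%) and 3 fell (37.5%), beside 27.0% and 25.8% of all genes, and this group was not tested against the chains. Serpinh1, the collagen chaperone Hsp47, had log2 signals of 12.08, 12.11 and 11.99 in DAC/TSA cells, against 13.59, 13.59 and 13.49 in control cells. Every DAC/TSA array lay far below every control array, and Serpinh1 fell 2.82-fold (log2 change -1.49 ± 0.09, adjusted p = 3.37e-08) and 1.97-fold by its other probe. Loxl1, a lysyl oxidase that cross-links elastin, had 7.60, 7.55 and 7.56 in DAC/TSA cells, against 8.76, 8.81 and 8.75 in control cells. Its values within a group differed little, and it fell 2.30-fold (log2 change -1.20 ± 0.08, adjusted p = 1.47e-07). Its relative Loxl4 had a change of 0.21 that did not pass (adjusted p = 0.102).

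The prolyl 4-hydroxylases, which make collagen helices stable at body temperature, changed in opposite directions. P4ha2 had log2 signals of 10.18, 10.10 and 10.16 in DAC/TSA cells, against 9.69, 9.55 and 9.55 in control cells, and rose 1.47-fold (adjusted p = 0.000146). P4ha1 had 7.27, 7.38 and 7.58 in DAC/TSA cells, against 7.78, 7.68 and 8.08 in control cells, and fell 1.36-fold (adjusted p = 0.00675). Neither gene's groups overlapped. The call of P4ha1 was lost with median scaling (0.287), background-corrected signals (0.014), the mean of probes (0.0122) and without any 1 array other than control replicate 2 and DAC/TSA replicate 3 (0.0145 to 0.0326), and that of P4ha2 with median scaling (0.0255). Among the lysyl hydroxylases, Plod3, which also adds sugars to collagen, rose 1.33-fold (adjusted p = 0.00093), a call that was lost with median scaling (0.0398) and the mean of probes (0.0136). Plod1 and Plod2 had changes of 0.04 and 0.01 (adjusted p = 0.763 and 0.955).

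Partner chains of 1 collagen and the paired hydroxylases were compared directly, in 4 pairs chosen after their values were seen. The difference was taken on each array as the log2 signal of the first gene minus that of the second. P4ha2 changed by 0.99 ± 0.17 (SE) more than P4ha1, and Col4a2 by 0.45 ± 0.14 more than Col4a1. For Col6a1 against Col6a2 and Col4a5 against Col4a6 the measured differences were 1.52 ± 0.03 and 0.49 ± 0.08, but Col6a2 and Col4a6 were not above background on any control array and could not show a larger change, so that these pairs allow no comparison of size. In each of the 4 pairs the DAC/TSA and control differences did not overlap. The exact permutation test, two-sided, gave p = 0.1 (0.1 after Benjamini-Hochberg adjustment) for each, the smallest that 3 against 3 arrays allow. Because the pairs were picked from values already seen, neither result is support for a difference within a pair. Non-overlap was not counted over other pairs of genes. Col4a1 and Col4a2 are listed head to head on chromosome 8, where their 300-base start windows share 78 bases. Col4a5 and Col4a6 start on opposite strands of chromosome X, with 842 bases between their windows.

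**Figure D3:**
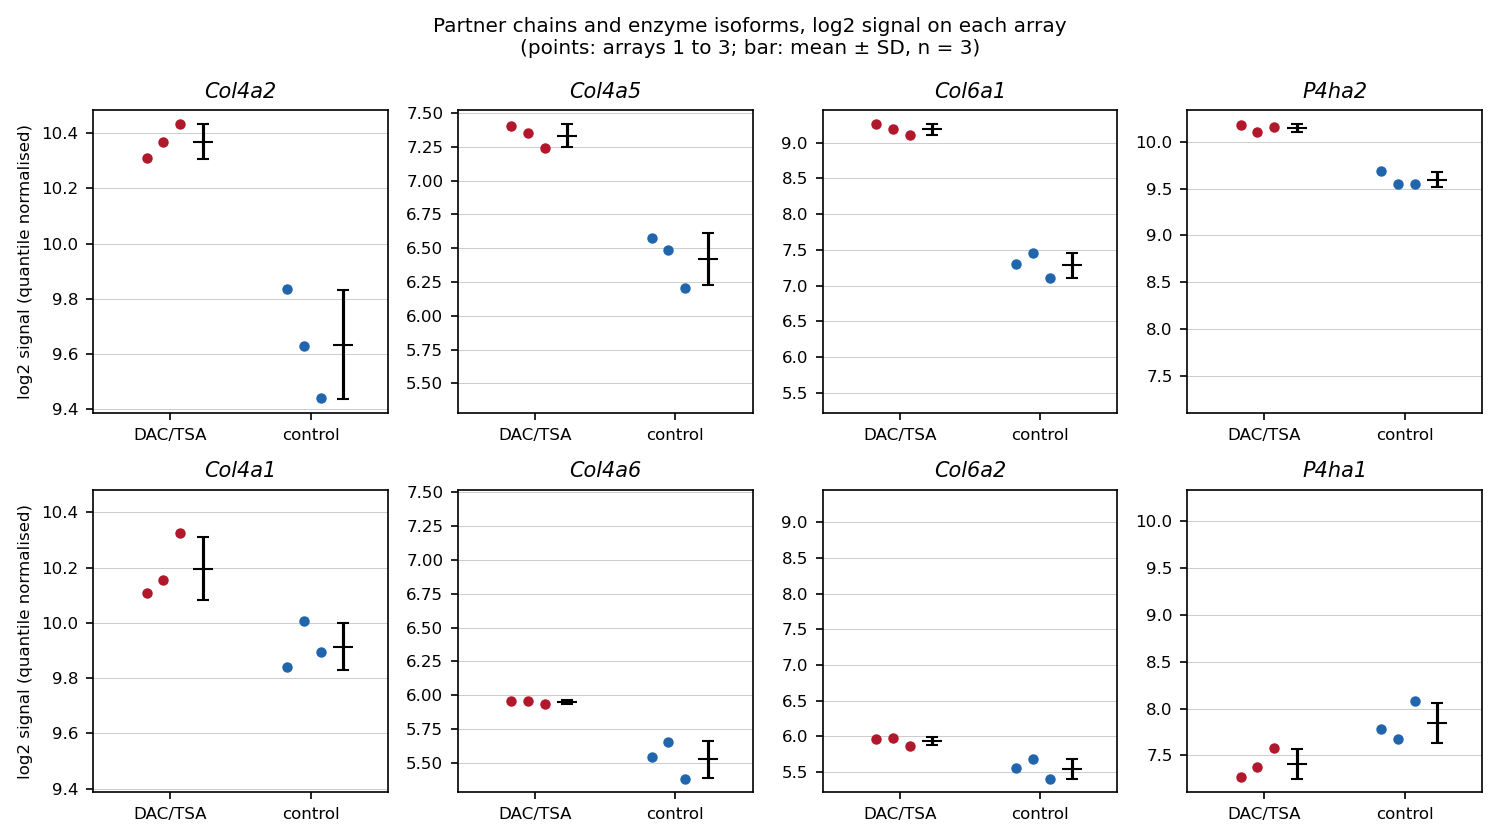
Log2 signals (y axis, quantile-normalised) of the 4 gene pairs on each array, with DAC/TSA arrays left of control arrays, the group mean ± SD as a bar and 1 column per pair, whose upper and lower panels share a y scale that differs between columns. Col6a2 and Col4a6 were detected on no control array, and in DAC/TSA cells P4ha2 lies higher and P4ha1 lower than in control cells.

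Of the 45 genes, 25 had several tested probes. All probes of 17 of them gave the same call, those of 8 gave mixed calls (Col18a1, Col24a1, Col6a2, Dcn, Ltbp3, P4ha1, Plod3 and Vcan), and no gene had 1 probe that rose and another that fell. Second probes of Plod3 and Col6a2 had changes of 0.11 and 0.29 that did not pass, and that of P4ha1 had -0.35 (adjusted p = 0.0223). Of the further Dcn probes, 1 was at least 1.51-fold higher and the other had a change of 0.45 that did not pass (adjusted p = 0.0165).

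**Figure D4:**
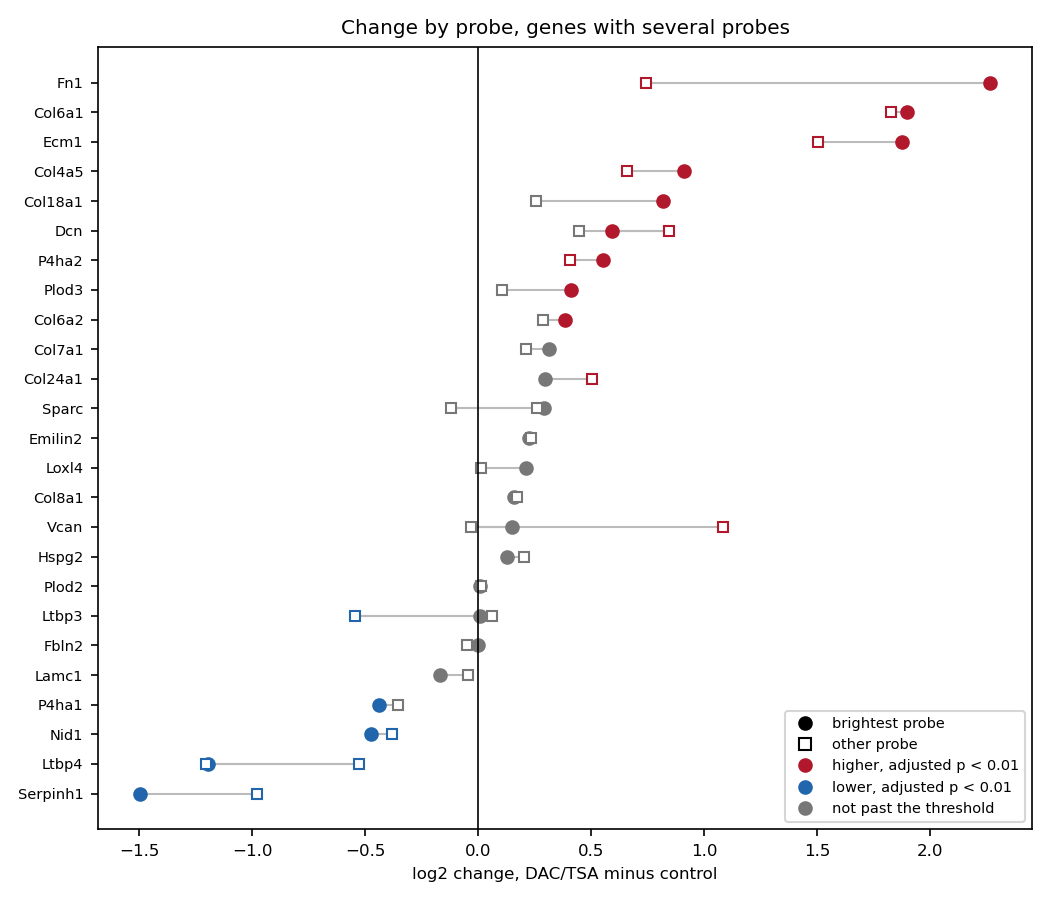
Log2 change (x axis, DAC/TSA minus control, limma) of every tested probe of the matrix genes with several probes, with a filled circle for the brightest probe, which represents the gene, and open squares for the others. Red and blue passed an adjusted p of 0.01 and grey did not. The probes of Col6a1, Ecm1, Fn1, Serpinh1 and Ltbp4, among others, lie on 1 side of 0. Those of Fn1 and Vcan are spread widely, and those of Vcan lie on both sides of 0.

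Other genes of the pathway were read from lists of background genes. Their counts stand beside 27.0% of all genes that rose and 25.8% that fell. Of 17 measured further genes of collagen biosynthesis and secretion, 7 rose and 2 fell, with a median log2 change of 0.24. The largest rises were those of Crtap (0.68), a subunit of the prolyl 3-hydroxylase complex, Pcolce2 (0.57), an enhancer of procollagen cleavage, Tmem38b (0.50), an ion channel of the endoplasmic reticulum, and Colgalt1 (0.49), a collagen galactosyltransferase. P3h1, the prolyl 3-hydroxylase that works with Crtap, fell by 0.42 on the log2 scale, and Pcolce, the other enhancer, fell by 0.32. Of 10 measured matrix genes that the symbol rule left out, 6 rose and 2 fell. The matrilins Matn4 and Matn2 rose by 1.36 and 1.17, and the hyaluronan synthase Has2, detected on no control array, was at least 1.95-fold higher. The tenascin Tnxb rose by 0.61. Mfap3 fell by 0.82 and Ccn1, a matricellular protein, by 0.74.

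TGF-β signalling, a main inducer of matrix genes, was described by 14 measured genes. Of these 5 rose and 7 fell, beside 27.0% and 25.8% of all genes, with a median log2 change of -0.36. The matricellular target Ccn2 rose by 1.85, the receptor Tgfbr2 by 1.21, the ligand Tgfb1 by 1.16 and the signal transducer Smad3 by 0.68. In contrast to Ccn2, Tgfbi, named as induced by TGF-β, fell by 0.68. The other receptor chain Tgfbr1 fell by 1.15, the transducer Smad2 by 0.70, and the co-repressors Skil and Ski by 1.04 and 0.84. Both receptor chains and both transducers named here thus moved in opposite directions.

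Markers of other cell types were read beside these changes. Their counts stand beside 27.0% of all genes that rose and 25.8% that fell, and the sums are of unnormalised signals. Of 5 measured leukocyte genes, 4 rose and 1 fell, and the summed signal was 439 to 512 units in DAC/TSA cells, against 201 to 232 in control cells. The 4 that rose, Lyz1, Lyz2, Cd52 and Laptm5, were detected on no control array and so had to be higher in DAC/TSA cells. Cd79b, which fell, was detected on no DAC/TSA array. Lyz1 differed most in signal, with a mean of 187 units in DAC/TSA cells, against 39.7 in control cells. Of 3 endothelial genes 1 rose and 1 fell, with sums of 1769 to 2039 in DAC/TSA cells and 366 to 425 in control cells. This sum was made up mainly by Egfl7, which was 9.47-fold higher. Of 6 epithelial genes 3 rose (Krt14, Pkp2 and Cldn4) and none fell, with sums of 3097 to 4391 against 2281 to 3530, and of 6 fibroblast genes none rose and 2 fell (Prrx1 and Pdgfra), with sums of 2903 to 3735 against 2865 to 3637. The defining genes Ptprc, Pecam1, Cdh5, Epcam and Cdh1 are not analysed here. All arrays came from 1 tumour cell line in culture, so these values are read as genes of that line and not as counts of cell types. The part of these markers in the matrix changes was not tested.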

How the data were processed

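Total RNA of RVP3 cells was measured on 3 DAC/TSA and 3 control Illumina Mouse WG-6 arrays. The authors deposited unnormalised, linear probe intensities from BeadStudio, each with a detection p-value, and a table of log2 values after quantile normalisation. Own quantile-normalised log2 values of the intensities equalled that table to within 4.97e-14. The submitters' processing notes name limma, with no version given.

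Signals were quantile-normalised, put on the log2 scale and kept for the 16760 probes with a detection p-value of 0.01 or less on at least 1 array. A two-sided comparison of the groups was fitted by limma 3.58.1 (lmFit and eBayes, R 4.3.3), with no covariate, Benjamini-Hochberg adjustment over these probes and an adjusted p of 0.01. Errors are SE of the fit. Exact tests used SciPy 1.17.1 (Python 3.11.15). The series' design calls the samples of a group biological replicates, and the number of arrays limits the precision. The fit was tested on simulated data.

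Symbols came from the platform annotation, which covers the 15131 probes of the log2 table out of 45281 and can be old: 13126 had 1 symbol, 6 had several and 1999 had none. On a group without detection, a bound was set from the lowest detected signal of each array or the probe's own signal, if higher, and written as "at least". Signals on every array are given for genes with an adjusted p under 0.01 and at least a 1.5-fold difference and for the gene with the highest mean signal of each role. Values of further genes, and the partner pairs, were chosen after they were seen. From the other lists at most 4 genes a direction, the largest changes past the threshold, are named, and Tgfbi was added to be read beside Ccn2. The counts over genes detected in both groups were added after seeing the data. Members and lists were chosen with earlier results of these data known.

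Deviations from the group means of same-numbered arrays correlated across probes at 0.34, 0.24 and 0.65. Replicates 1 and 2 were not told apart by this, since DAC/TSA 1 with control 2 gave 0.37 and DAC/TSA 2 with control 1 gave 0.22, whereas replicate 3 of either group gave -0.53 to -0.34 with replicates 1 and 2 of the other. Deviations from a group mean cancel out within the group, so these negative values in part restate the 0.65 of replicate 3. The block thus rests mainly on replicate 3, and no label names a shared day or batch. No slide or scan information was used. The alternatives were other normalisation, background correction, probe filters, probe summaries, thresholds, the replicate block and leaving out each array.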

Additional observations from a re-analysis of the deposited data

How the results depend on the processing

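Directions of all called matrix genes were the same under every alternative run. Counts of 19 higher and 7 lower genes became 12 and 3 with median scaling. This also moved the share of higher genes among all calls to 62.1%, against 51.1% with quantile normalisation. With a 2-fold minimum the counts became 6 and 3, beside 617 and 334 of all genes. With the replicate block, 25 matrix genes were higher and 7 lower, and it changed no other call than the 6 given. Of all genes, 2837 were higher and 2864 lower with the block, against 2358 and 2254 without it. An adjusted p of 0.05 gave 25 and 7 matrix genes, and 2826 and 2843 of all genes. The calls lost under median scaling were those of 11 genes: Col4a6, Nid1, Col16a1, Col5a3, Mgp, Dcn, Emilin1, Col6a2, P4ha1, P4ha2 and Plod3. The cause was not tested.

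The median log2 change of glycoproteins was 1.16 with median scaling, 1.25 with background correction, 1.06 with an offset of 16 and 1.08 with the mean of probes. That of proteoglycans was 0.59, 0.61 and 0.44 under the first 3 of these, and that of other collagens 0.38, 0.49, 0.30 and 0.30, and 0.38 for probes detected on every array of a group. The basement membrane and fibrillar medians were 0.36 and 0.64 with background correction. The microfibril median was 0.027 with median scaling and -0.092 with the mean of probes, and the processing median was 0.073 with median scaling.

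Leaving out each array in turn gave 17 to 18 higher and 6 to 7 lower genes, and medians of 0.26 to 0.34 (basement membrane), 0.38 to 0.50 (fibrillar), 0.27 to 0.39 (other collagens), 1.09 to 1.13 (glycoproteins), 0.43 to 0.55 (proteoglycans), -0.032 to 0.056 (microfibril) and -0.058 to 0.098 (processing). Signals near background understate changes, so that the dim collagens detected only in DAC/TSA cells have bounds and no fold.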
